A study of Mus musculus and Homo sapiens with 8 samples.

Results

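The genes described here encode the proteins of the cytosolic ribosome, measured by RNA-seq in crypts of the mouse small intestine. They were chosen by name: protein-coding genes whose symbol is Rpl or Rps followed by a digit, or Rpsa, Rplp0, Rplp1 or Rplp2, without the Rps6k kinases and without pseudogenes. This gave 84 of the 13359 distinct genes in the deposited table. Of these, 77 are the standard genes of the ribosome (46 of the large and 31 of the small subunit), 6 are further copies of such genes (Rpl22l1, Rpl36al, Rpl37rt, Rpl7l1, Rps27l and Rps27rt), and Rps19bp1 encodes a protein that binds RPS19 and is not part of the ribosome. This sorting was made after the genes had been listed.

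Untreated C57BL/6 mice, 2 months old, were compared in 2 groups of 2 libraries. All mice carried the Apc Min mutation (APCmin+ in the labels), a truncation of Apc, a brake on Wnt signalling, that causes intestinal adenomas. The controls carried that mutation only, and the other group was also labelled Zmynd8IEC-/-, a deletion in the intestinal epithelium of Zmynd8, which encodes a chromatin reader. The labels name no Cre line or promoter. Every library pooled RNA of 3 mice by equal mass, so p-values reflect the spread among pools. No group without the Apc mutation was sequenced, and whether the 2 pools of a group came from separate litters or days is not stated in the sources used here. In bulk libraries such as these, fewer cells of a type and less RNA per cell cannot be told apart.

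A ribosome has a small subunit (40S), which reads the messenger RNA, and a large subunit (60S), which joins the amino acids; each standard protein is present in about equal numbers of molecules per ribosome, apart from the stalk proteins P1 and P2. The messenger RNAs of these proteins typically start with a C followed by a run of pyrimidines, the 5′ terminal oligopyrimidine (5′ TOP) motif, through which mTOR and LARP1 control their translation and stability. Many of the genes also hold small nucleolar RNAs in their introns. In intestinal crypts, stem cells and dividing progenitors make many ribosomes, while differentiated enterocytes on the villus divide no more.

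The libraries held between 44718091 and 48778712 reads, as recovered from the deposited values, which are in FPKM (reads divided by gene length and by library depth). Recovered reads of the standard ribosomal protein genes ran from 1497 to 46910 per gene and library. The lowest, in Rps28, gives a counting SD of 0.0373 on the log2 scale, but it depends on the length recovered for that gene. RNA of Zmynd8 itself was not lower in the knockout-labelled libraries: the controls had 6.94 and 4.73 FPKM and the others 7.30 and 7.65 FPKM (difference of 0.33 on the log2 scale, SE 0.18, limma adjusted p = 0.293). These values cover the whole gene and the deleted part is not named, so each direction below rests on the labels.

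Ribosomal protein genes lay among the most highly expressed genes of the crypt. Their mean level over the 4 libraries had a median of 251 FPKM, against 7.29 FPKM for the 12948 genes tested, and 71 of 84 reached 100 FPKM. Of the 200 genes with the highest mean, 34 were ribosomal protein genes. The highest was Rplp1, an acidic protein of the stalk that recruits elongation factors, at 1057 and 1078 FPKM in control replicates 1 and 2, against 924 and 953 FPKM in the knockout-labelled pair. Rps12, of the head of the small subunit, followed at 756 and 733 FPKM in the controls against 659 and 627 FPKM. Both had their 2 control values above both knockout-labelled values. Rplp0, which anchors the stalk, stood at 771 and 631 FPKM (controls) and 576 and 577 FPKM (knockout-labelled), with control replicate 1 well above the other 3 libraries. Rpl41, the shortest ribosomal protein, stood at 768 and 582 FPKM in control replicates 1 and 2, against 578 and 557 FPKM in the knockout-labelled pair, and Rps2, which lines the mRNA channel, at 730.0 and 570.0 FPKM in the controls against 523 and 503 FPKM. In all 3 of these genes control replicate 2 lay nearer to the knockout-labelled libraries than to the other control.

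The lowest standard genes were Rps15a at 37.1 and 35.8 FPKM (controls) and 30.002 and 29.2 FPKM (knockout-labelled), Rpl22 at 55.8 and 45.1 FPKM in control replicates 1 and 2, against 42.4 and 39.1 FPKM in the knockout-labelled pair, Rps20 at 71.5 and 59.4 FPKM in the controls against 59.9 and 57.4 FPKM, Rpl15 at 94.7 and 87.0 FPKM (controls) and 80.0 and 77.4 FPKM (knockout-labelled) and Rps24 at 92.4 and 86.4 FPKM in control replicates 1 and 2, against 84.4 and 76.4 FPKM in the knockout-labelled pair. The gene lengths behind these FPKM values were 5136, 2497, 3446, 2015 and 3432 bases, against a median of 766.5 bases over the 84 genes. Across the 77 standard genes, Spearman's rho between gene length and mean FPKM was -0.35, a description over genes that share the same libraries and a scale that divides by length. The median mean level was 261 FPKM for the 46 large subunit genes and 283 FPKM for the 31 small subunit genes.

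**Figure D1:**
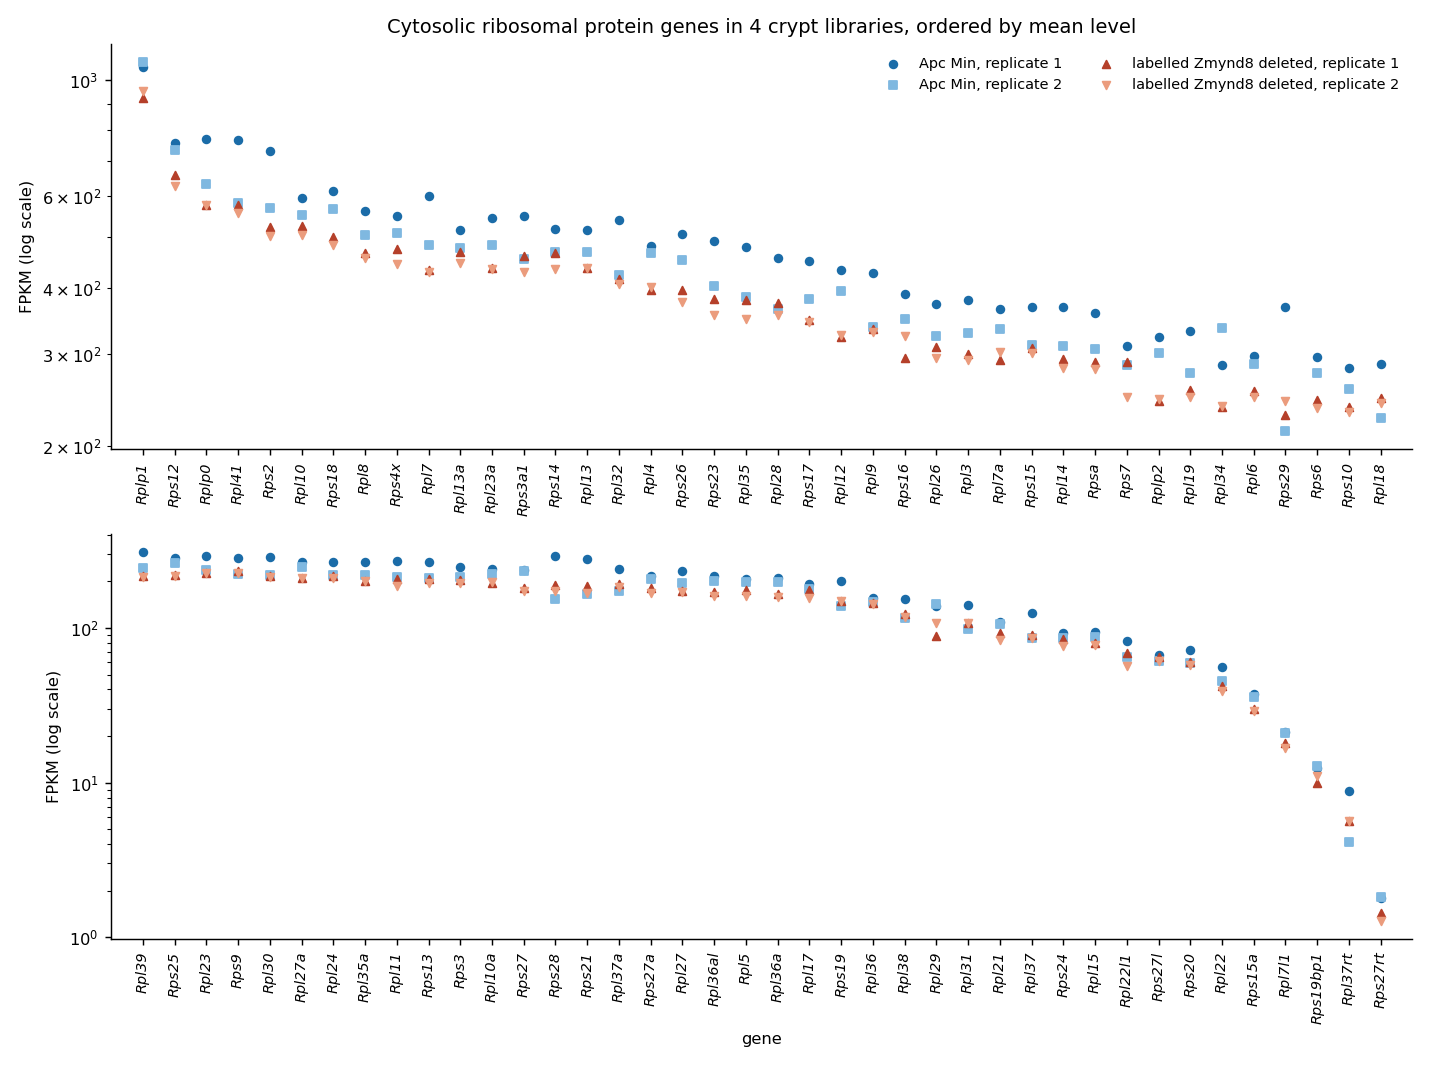
Level of 80 of the 84 ribosomal protein genes in each library (FPKM, log scale), ordered by mean over the 4 libraries and split over 2 panels; circles and squares are the 2 controls, triangles the 2 knockout-labelled libraries. Control replicate 1 is the highest library for 75 of the 80 genes shown.

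RefSeq promoter windows of build GRCm38.p6, each from 250 bases before to 50 bases after the annotated start, were available here for 64 of the 84 genes. The base at the annotated start was C or T in 50% of them, against 29.4% of 27025 genes in the table, and C in 35.9% against 16.2%. Annotated starts can be off by some bases, so runs were also searched near them, a choice made after the windows had been read. A run of at least 8 C or T on the transcribed strand, within 50 bases on either side of the start, was present in 49 of 64 windows (76.6%) against 35.7% of all genes. The following 50-base windows run from 20 bases before the annotated start through the first 30 bases of the transcript, 5′ to 3′ on the transcribed strand, with the longest C/T run in capitals. Rpl35 and Rps6 show long runs close to the start, Rplp2, Rps27 and Rpl34 are among the genes with the most negative fold changes, Rps27rt is a copy of Rps27 elsewhere in the genome, and Rps28 has no run longer than 4 in the window. The windows shown were picked after sequences and fold changes had been seen.
Rpl35 (chr2:39005102-39005151, minus strand): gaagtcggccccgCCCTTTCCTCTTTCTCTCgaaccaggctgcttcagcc
Rps6 (chr4:86857338-86857387, minus strand): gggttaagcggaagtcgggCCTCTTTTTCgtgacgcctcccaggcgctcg
Rplp2 (chr7:141447631-141447680, plus strand): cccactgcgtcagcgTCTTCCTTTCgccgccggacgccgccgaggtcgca
Rps27 (chr3:90213619-90213668, minus strand): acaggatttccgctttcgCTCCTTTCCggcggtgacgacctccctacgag
Rps27rt (chr9:114982710-114982759, minus strand): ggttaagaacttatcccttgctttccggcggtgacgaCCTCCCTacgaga
Rpl34 (chr3:130730369-130730418, minus strand): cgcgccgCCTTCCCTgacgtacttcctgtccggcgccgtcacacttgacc
Rps28 (chr17:33824533-33824582, minus strand): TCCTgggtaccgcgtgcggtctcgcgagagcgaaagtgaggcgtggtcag

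In Rpl35 the run of 18 pyrimidines began 7 bases before the annotated start, and in Rps6 the run of 10 began 1 base before it. Rps27 and its copy Rps27rt shared 38 of the first 50 transcribed bases as 1 unbroken stretch, while before the start the longest shared stretch was 10 of 250 bases. Searched on both strands of the 300-base windows, the letters CCGGAAG, a motif of ETS factors, were found in 37.5% of the ribosomal protein genes and 9.12% of all genes. The Sp1 motif GGGCGG was found in 60.9% of the ribosomal protein genes and 35.9% of all genes. The YY1 motif AAGATGGC was found in 7.81% and 2.88%, and the letters TATAAA of a TATA box in 9.38% and 14.2%. These motifs were also chosen after the windows had been read. The median log2 fold change was -0.24 for the 49 genes with a pyrimidine run of at least 8 and -0.23 for the 15 without.

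No ribosomal protein gene passed the test between the groups, yet all 84 fold changes were negative. With limma on log2(FPKM + 1) and Benjamini-Hochberg adjustment over all genes, 0 of 84 had an adjusted p under 0.05, where 0.726% of the 12948 genes tested did (77 higher and 17 lower). The lowest limma adjusted p among the 84 was 0.117. Unadjusted, 12 of 84 had p under 0.05, all with negative fold changes, beside 19.1% of all genes tested that were lower at this level. With voom on recovered reads, 0 were called, beside 150 of the 12948 genes tested. Under voom 17 of the 84 had unadjusted p under 0.05, beside 3499 of the 12948 in either direction. The log2 fold changes of the 84 genes had a median of -0.23 and an SD of 0.085, and the most negative was -0.52. Over all genes tested the median was -0.15, the SD 0.43 and the share of negative values 71.7%. The 95% interval included 0 for 72 of the 84 genes and included the median of all genes for 83.

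**Figure D2:**
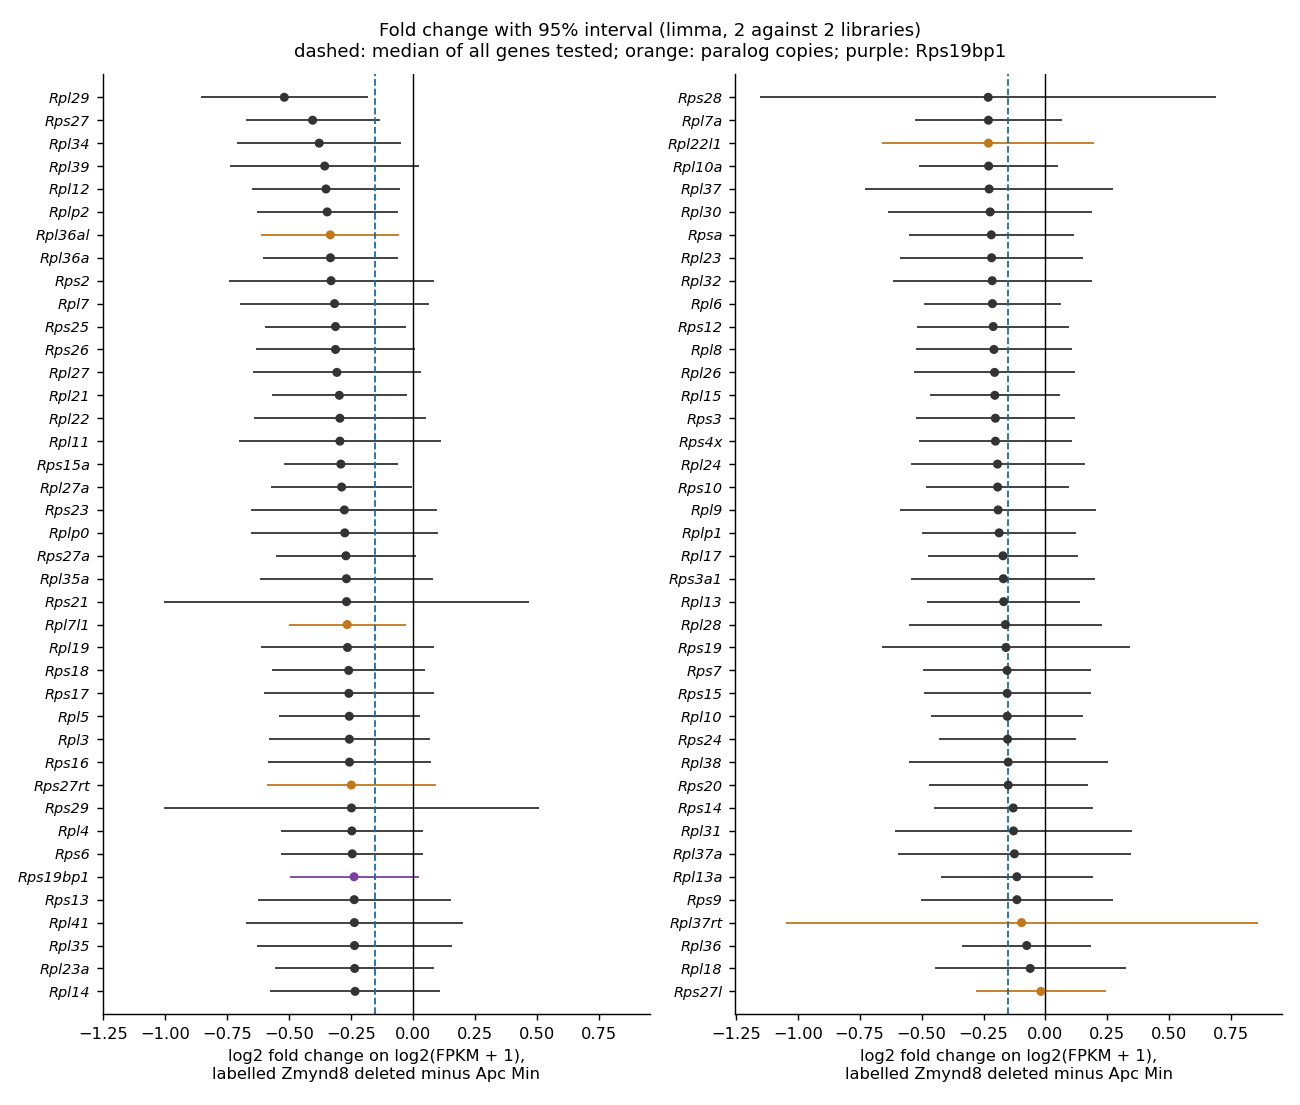
Log2 fold change of 80 of the 84 genes on the log2(FPKM + 1) scale, knockout-labelled libraries minus controls, with limma's 95% interval (2 against 2 libraries); the solid line is 0 and the dashed line the median of all genes tested, -0.15. All 80 points lie below 0, and 68 of the intervals include 0.

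Rpl29, a small basic protein of the large subunit, had the most negative fold change. It stood at 138 and 142 FPKM in the controls against 88.4 and 108 FPKM. The groups did not overlap, and the 2 controls were close together (log2 fold change -0.52, SE 0.13, 95% interval -0.86 to -0.18, limma adjusted p = 0.117). Rps27, a zinc-finger protein of the small subunit, stood at 238 and 234 FPKM (controls) and 182 and 174 FPKM (knockout-labelled) (-0.41, SE 0.11, 95% interval -0.68 to -0.13, limma adjusted p = 0.12). Rpl34, of the large subunit, stood at 285 and 336 FPKM in control replicates 1 and 2, against 238 and 238 FPKM in the knockout-labelled pair (-0.38, SE 0.13, 95% interval -0.71 to -0.048, limma adjusted p = 0.159). In Rps27 and Rpl34 the 2 knockout-labelled libraries were close to each other and below both controls. Rpl39, which lines the tunnel through which the nascent chain leaves, stood at 309.7 and 246 FPKM in the controls against 218 and 212 FPKM (-0.36, SE 0.15, 95% interval -0.74 to 0.025, limma adjusted p = 0.204). Here control replicate 1 was the highest and control replicate 2 lay between it and the other libraries.

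Among the genes with fold changes near 0, Rps27l, a copy of Rps27 known as a p53 target, stood at 66.8 and 61.3 FPKM (controls) and 65.0 and 61.5 FPKM (knockout-labelled) (-0.018, SE 0.10, 95% interval -0.28 to 0.24, limma adjusted p = 0.921). Both its knockout-labelled values lay between the 2 controls. Rpl18 stood at 287 and 226 FPKM in control replicates 1 and 2, against 247 and 241 FPKM in the knockout-labelled pair (-0.061) and Rpl36 at 156 and 148 FPKM in the controls against 144 and 144 FPKM (-0.075). Of these 3 genes, Rpl36 alone had non-overlapping groups, with control replicate 2 only just above the knockout-labelled libraries. Rpl37rt had a fold change of -0.10 and Rps9 one of -0.12.

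The direction rested in part on control replicate 1. Both knockout-labelled values were below both control values for 63 of 84 genes, or 75%, where the same held for 48.5% of all genes tested. In the other 21 genes the groups overlapped, always through control replicate 2 and never through control replicate 1. In 13 of them both knockout-labelled libraries were above control replicate 2. From control replicate 1 to control replicate 2, the median difference over the 84 genes was -0.21 on the log2 scale, with 79 genes lower in the second, against -0.082 over all genes tested. From control replicate 2 to the knockout-labelled replicates 1 and 2 it was -0.085 and -0.14, against -0.084 and -0.13 over all genes. From control replicate 1 it was -0.31 and -0.36, against -0.16 and -0.22. The 2 knockout-labelled libraries differed by a median of -0.053, second minus first, against -0.036 over all genes. Without control replicate 1 the median fold change of the 84 genes was -0.12 (all genes tested -0.11), and 68 were negative. Without control replicate 2 it was -0.33 (all genes -0.19), and 84 were negative. In both, 0 of the 84 were called.

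The widest gaps between the controls were in genes of the small subunit head and platform and in a copy gene. Rps28, at the exit of the mRNA channel, stood at 292 and 155 FPKM (controls) and 190.3 and 173 FPKM (knockout-labelled). Rps29, a zinc-binding protein of the head, stood at 368 and 214 FPKM in control replicates 1 and 2, against 229 and 243 FPKM in the knockout-labelled pair, and Rps21, of the platform, at 278 and 165 FPKM in the controls against 186 and 169 FPKM. Rpl37rt, a retrotransposed copy of Rpl37, stood at 8.88 and 4.11 FPKM (controls) and 5.65 and 5.65 FPKM (knockout-labelled). In each of these 4 genes control replicate 1 was the highest library, control replicate 2 the lowest, and both knockout-labelled libraries lay between. Their fold changes, from -0.27 to -0.10, had 95% intervals that reached from -1.15 to 0.86. Rps28 also had the shortest recovered length of the 84 genes, at 198 bases. The smallest fitting length was taken for each gene, so its true length and reads may be a multiple of the recovered ones. Across the 84 genes, Spearman's rho between gene length and the difference between the controls (replicate 2 minus 1) was 0.24, between length and the difference between the knockout-labelled libraries 0.0021, and between length and fold change 0.14. These are descriptions over genes measured in the same 4 libraries. In length classes set after the data were seen, the median control difference was -0.32 under 500 bases (n = 11), -0.22 from 500 to under 700 bases (n = 26), -0.25 from 700 to under 1000 bases (n = 20) and -0.12 at 1000 bases or more (n = 27), so the middle classes did not follow an order by length. The other genes with a mean of at least 100 FPKM had medians of 0.13, 0.0014, 0.011 and 0.071 in the same classes. Whether fragment size or RNA quality had a part in this was not tested.

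**Figure D3:**
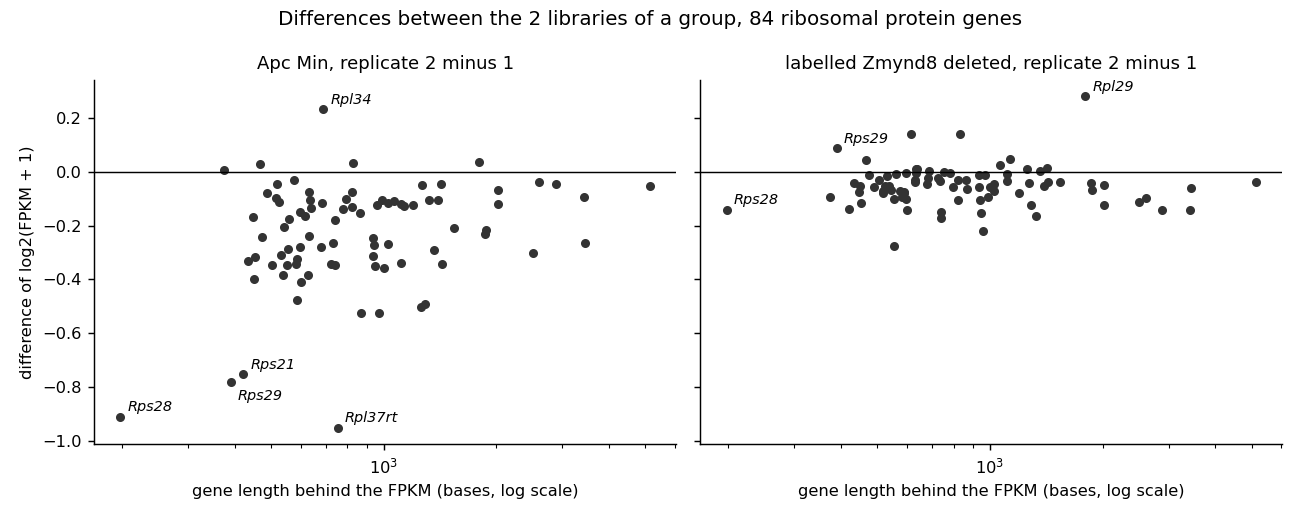
Difference in log2(FPKM + 1) between the 2 libraries of a group (replicate 2 minus replicate 1) against the gene length behind the FPKM (bases, log scale), for the controls on the left and the knockout-labelled libraries on the right; each point is 1 of 84 genes. The controls differ by a median of -0.21 and the knockout-labelled libraries by -0.053.

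The size of the shift depended on the scaling. Median-ratio scaling of the 4 libraries, which moved the median of all genes from -0.15 to -0.0057, gave a median of -0.055 for the 84 genes, with 61 negative and 23 positive (50.9% of all genes negative). Under it 28 genes (33.3%) were below both controls in both knockout-labelled libraries, beside 28% of all genes. Rescaling each library to the same summed FPKM gave a median of -0.20, with 82 negative (68.9% of all genes), and 50 genes below both controls, 59.5% beside 44.1%. Quantile normalization gave -0.22 with 81 negative (53.8%) and 56 genes below both controls, beside 31% of all genes. Relative to the median of all genes, the members' median stood at -0.077 as deposited, -0.050 after median-ratio scaling, -0.061 after rescaling and -0.19 after quantile normalization. Rpl29 kept a negative value under each scaling (-0.35 after median-ratio scaling), as did Rps27 (-0.23) and Rpl34 (-0.20). Rpl18 turned to 0.11 and Rps27l to 0.16 after median-ratio scaling. The other 569 genes with a mean of at least 100 FPKM, a class set after the data were seen, had a median of 0.029 as deposited and an SD of 0.59, with 266 negative.

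**Figure D4:**
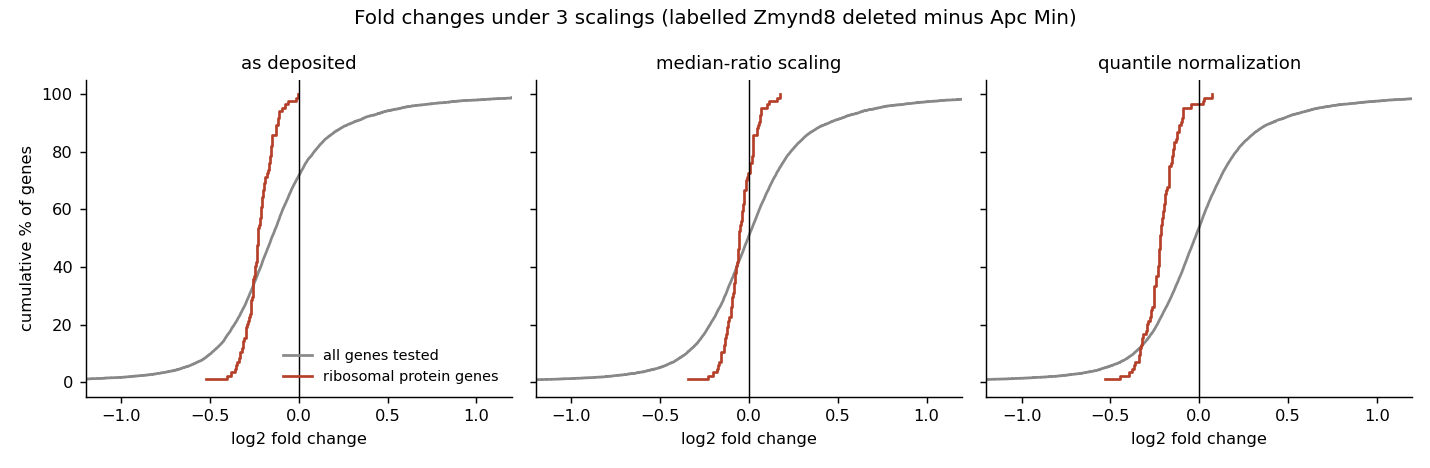
Cumulative percent of genes by log2 fold change (knockout-labelled libraries minus controls) for the 84 ribosomal protein genes (red) and all genes tested (grey), as deposited (left), with median-ratio scaling (middle) and with quantile normalization (right); the line at 0 marks no difference and the axis is cut at -1.2 and 1.2. The median of the 84 genes is -0.23, -0.055 and -0.22 in the 3 panels.

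Summed over the 84 genes, the level was 28006 and 24057 FPKM in the controls, against 22540 and 21806 FPKM in the knockout-labelled libraries. The group means were 26031 ± 2792 and 22173 ± 519 FPKM (SD, n = 2 each), a difference of -3859 FPKM. As a share of all FPKM in the table this was 6.61% and 5.58% against 5.39% and 5.19%, and as a share of reads 2.36% and 2.05% against 1.92% and 1.85%. Both controls lay above both knockout-labelled libraries, which gives an exact permutation p of 0.333 (two-sided), the smallest that 2 against 2 libraries allow, and 0.6 after Benjamini-Hochberg adjustment over 9 such tests. After median-ratio scaling the difference was -876 FPKM with overlapping groups (exact permutation p = 0.667). Without control replicate 1 it was -1884 FPKM.

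No difference in the balance of the subunits was detectable with 2 libraries a group. The mean log2 level of the Rps and Rpsa genes minus that of the Rpl and Rplp genes was -0.12 and -0.13 in the controls, against -0.097 and -0.12, values that interleave (exact permutation p = 0.667, two-sided). These sets, made by symbol, include the copies and Rps19bp1, so their values are not those of the standard genes alone. Without copies and Rps19bp1, a choice made after the data were seen, the group difference was 0.012, beside 0.016 with them. The median fold change was -0.23 over the 46 standard large subunit genes and -0.22 over the 31 of the small subunit. Below both controls in both knockout-labelled libraries were 39 of the 46 and 20 of the 31, beside 48.5% of all genes. After median-ratio scaling these counts were 15 and 10, beside 28% of all genes.

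Of the 5 lists by place in the ribosome, the stalk and 5S particle had the most negative median. All 6 of these genes were negative, with a median of -0.29, none was called, and in all 6 both knockout-labelled libraries were below both controls, beside 48.5% of all genes tested. Rplp2, the partner of P1 in the stalk, stood at 323 and 300.4 FPKM in control replicates 1 and 2, against 244 and 246 FPKM in the knockout-labelled pair (-0.35, SE 0.11, 95% interval -0.63 to -0.062, limma adjusted p = 0.148). Rpl12, at the base of the stalk, stood at 434 and 396 FPKM in the controls against 323 and 326 FPKM (-0.35, SE 0.12, 95% interval -0.65 to -0.051, limma adjusted p = 0.155). In both genes the knockout-labelled libraries were nearly equal and each control was higher. Rplp0 had a fold change of -0.28 and Rplp1 of -0.19. Rpl5 and Rpl11, which bind 5S rRNA and, when free of the ribosome, the p53 regulator Mdm2, stood at 207 and 197 FPKM (controls) and 176 and 162 FPKM (knockout-labelled) (-0.26) and, for Rpl11, 272 and 213 FPKM in control replicates 1 and 2, against 207 and 186 FPKM in the knockout-labelled pair (-0.30). All 6 stayed negative after median-ratio scaling, with a median of -0.11, but 3 of the 6 then had non-overlapping groups, beside 28% of all genes.

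Of the 14 genes of the small subunit head, 14 were negative with a median of -0.22, and 9 had non-overlapping groups. For these lists too, 71.7% of all genes tested were negative and 48.5% were below both controls in both knockout-labelled libraries. Rps25, which some viral mRNAs need for initiation, stood at 284 and 262 FPKM in the controls against 221 and 217 FPKM (-0.31). Rps19, the gene most often mutated in Diamond-Blackfan anemia, stood at 200.04 and 139 FPKM (controls) and 149.6 and 148 FPKM (knockout-labelled) (-0.16), with control replicate 2 the lowest library. Of the 6 platform genes 6 were negative (median -0.24), led by Rps2 at -0.33 and Rps26 at -0.31, and 4 had non-overlapping groups. Rpsa, the platform protein also known as the laminin receptor, stood at 359 and 306 FPKM in control replicates 1 and 2, against 289 and 281 FPKM in the knockout-labelled pair (-0.22). Of the 11 body genes 11 were negative (median -0.20) and 7 had non-overlapping groups. Rps6, the substrate of the S6 kinases downstream of mTOR, stood at 296 and 275 FPKM in the controls against 245 and 236 FPKM (-0.25, SE 0.11, 95% interval -0.53 to 0.041, limma adjusted p = 0.229). Both controls of Rps6 were above both other libraries. Rps15a had -0.29 and Rps23, of the decoding centre, -0.28.

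Of the 8 genes at the exit tunnel of the large subunit, 8 were negative (median -0.24) and 7 had non-overlapping groups, beside the same 48.5% of all genes. By p, Rpl39 was followed by Rpl22 at -0.30, Rpl19 at -0.26 and Rpl23a at -0.24. Of 15 genes mutated in Diamond-Blackfan anemia, 15 were negative (median -0.25) and 11 had non-overlapping groups, with Rps27, Rps26, Rpl27 (-0.31) and Rpl5 having the smallest p. After median-ratio scaling the negative counts were 10 of 14 in the head, 4 of 6 in the platform, 7 of 11 in the body, 6 of 8 at the exit tunnel and 12 of 15 among the anemia genes, beside 50.9% of all genes. Non-overlapping groups were then left in 4, 2, 4, 1 and 5 genes of these lists, beside 28% of all genes. No gene of these lists was called.

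The authors' deposited table gave a q under 0.05 for 1 of the 84 genes, Rps2 (authors' log2 fold change -0.34, q = 0.0231), where 2.13% of all genes in it had such a q. Its p was under 0.05 for 30 of 84, beside 5.55% of all genes, and its q was 1 for 69. These shares compare genes of unlike level, with a median mean of 251 FPKM against 7.29 FPKM for the genes tested with limma. The share over other genes of like level was not computed. With limma, 12 of 84 were lower at an unadjusted p under 0.05, beside 19.1% of all genes tested. The next in that table were Rpl7 (q = 0.11), Rplp0 (q = 0.128), Rpl12 (q = 0.169) and Rps26 (q = 0.246). No source used here names the test behind these deposited values. The limma adjusted p of Rps2 was 0.251, with control replicate 1 set apart at 730 FPKM.

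Copies of ribosomal protein genes can replace the standard protein, so their ratio to the standard gene was compared. The log2 ratio of Rps27l to Rps27 was -1.82 and -1.91 in the controls, against -1.48 in both knockout-labelled libraries. The knockout-labelled libraries were higher without overlap and the difference was 0.39, with an exact permutation p of 0.333 (two-sided), the smallest possible here. As deposited, Rps27 carried the lower values in the knockout-labelled libraries, and Rps27l stood at nearly the same level in all 4 libraries. After median-ratio scaling the fold changes were -0.23 for Rps27 and 0.16 for Rps27l, so the part of each gene in the ratio depended on the scaling. Rpl36a and its copy Rpl36al, on chromosomes X and 12, stood at 209 and 198 FPKM (controls) and 165 and 158 FPKM (knockout-labelled) for the former and at 216 and 202 FPKM in control replicates 1 and 2, against 170.1 and 161 FPKM in the knockout-labelled pair for the latter. Their fold changes were both -0.33, and their log2 ratio lay between 0.023 and 0.046 in all 4 libraries (exact permutation p = 1). Rpl22l1, which can stand in for Rpl22, stood at 82.8 and 65.0 FPKM in the controls against 68.7 and 56.6 FPKM (-0.23). Its log2 ratio to Rpl22 was 0.56 and 0.52 in the controls, against 0.68 and 0.52, so the groups interleaved (exact permutation p = 0.667).

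Rpl7l1, a copy of Rpl7 tied to ribosome assembly, stood at 21.3 and 20.8 FPKM (controls) and 17.96 and 16.7 FPKM (knockout-labelled) (-0.27), and Rpl7 at 599 and 483 FPKM in control replicates 1 and 2, against 433 and 429.8 FPKM in the knockout-labelled pair (-0.32). Their log2 ratio was -4.75 and -4.47 against -4.52 and -4.60, again interleaved (exact permutation p = 1). Rps27rt stood at 1.79 and 1.81 FPKM in the controls against 1.44 and 1.28 FPKM, which is as few as 23 reads in a library. Its ratio to Rps27 differed by 0.16 between the groups with a pseudocount of 1 and by 0.023 with one of 0.1. Rps4l, listed as a pseudogene and so not among the 84, had 26.5 and 19.2 FPKM in the controls, against 24.6 and 23.2 FPKM, with a log2 ratio to Rps4x of -4.32 and -4.66 against -4.22 and -4.21 (exact permutation p = 0.333). Rps19bp1 stood at 12.4 and 12.7 FPKM (controls) and 9.96 and 11.1 FPKM (knockout-labelled) (-0.24). Many ribosomal protein genes have near-identical pseudogenes, and no source used here says how reads that match several places were treated, so all levels of standard genes and copies are uncertain to that extent. Of 26 ribosomal protein pseudogenes tested, 12 were negative, with a median of 0.026, and their summed level was 196 and 136 FPKM in the controls against 170 and 159 FPKM. In that sum control replicate 1 was again the highest and control replicate 2 the lowest.

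Of the 84 genes, 26 overlap another listed gene, in 21 cases on the same strand. Most of these are small nucleolar RNAs in introns, such as Snora64 in Rps2, Snora65 in Rpl12, Snord100 and Snora33 in Rps12, and Snord32a, Snord34 and Snord35a in Rpl13a. On the opposite strand, 6 overlap another gene, Rpl32, Rps25 and Rps27rt among them. No source used here says whether counting used strand, so their reads cannot be told apart from those of the partner. The means of these opposite-strand partners were at most 5.87 FPKM, and those of the same-strand partners at most 15.4 FPKM (Snora65 in Rpl12). For Rps27rt, with a mean of 1.58 FPKM, the partner Osbpl10 was higher, at 4.05 FPKM. The 84 genes lie on 19 chromosomes, with 14 on chromosome 7 and 8 on chromosome 9.

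A few ribosomal proteins fall outside the name rule. Fau, which encodes RPS30 fused to a ubiquitin-like protein, had 326 and 315 FPKM in the controls, against 339 and 346 FPKM in the knockout-labelled libraries (log2 fold change 0.10, limma adjusted p = 0.587). Rack1, a scaffold on the small subunit head, stood at 418 and 373 against 346 and 340 FPKM (-0.20). In Fau both knockout-labelled libraries were above both controls, and in Rack1 both were below.

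The other genes of translation were also mostly negative, as were 71.7% of all genes tested. None of them was called, where 0.726% of all genes tested were. Ribosome assembly genes had 29 of 29 negative with a median of -0.40, and 28 had non-overlapping groups (48.5% of all genes were below both controls in both knockout-labelled libraries). After median-ratio scaling 29 were still negative and 25 had non-overlapping groups, beside 50.9% and 28% of all genes. The 4 of smallest p were Ncl, the nucleolar protein nucleolin, at -0.50 (limma adjusted p = 0.0806), the assembly factor Grwd1 at -0.65, the rRNA methyltransferase Fbl at -0.50 and the snoRNP protein Nhp2 at -0.49. Mitochondrial ribosomal protein genes, which make a separate ribosome, had 67 of 77 negative with a median of -0.25, and 56 were below both controls in both knockout-labelled libraries. After median-ratio scaling 50 were negative and 22 were below both controls, 28.6% beside 28% of all genes. Between the controls (replicate 2 minus 1) their median was -0.025, beside -0.21 for the cytosolic genes, and this contrast was not tested. Some other translation lists had a gap like that of the cytosolic genes, as given below.

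Initiation factors had 22 of 23 negative (median -0.27), where 71.7% of all genes tested were negative. Among these factors were Eif1ax at -0.58, Eif3b at -0.46, Eif2s1 at -0.46 and Eif4a1 at -0.49. Elongation factors, several of whose mRNAs also carry 5′ TOP motifs, had 8 of 8 negative (median -0.23), led by Eef1d at -0.40 and Eef2k, the kinase that restrains elongation, at -0.32. The 15 other 5′ TOP genes were all negative (median -0.28), among them Naca at -0.43 and Hnrnpa1 at -0.50. Of 10 genes that host snoRNAs and carry 5′ TOP motifs, 7 were negative, near the 71.7% of all genes. Their median was -0.44, with Snhg5 at -0.76 and Gas5 at -0.49. Regulators of 5′ TOP mRNAs had 15 of 17 negative (median -0.13), with Eif4ebp1 at -0.63, Larp1 at -0.31 and Eif4e at -0.31, while Larp1b stood at 0.46. After median-ratio scaling 7 of those 17 were negative, beside 14 of the 15 other 5′ TOP genes. The counts were then 19 of 23 initiation factors, 6 of 8 elongation factors and 6 of 10 snoRNA hosts, where 50.9% of all genes were negative. Between the controls (replicate 2 minus 1) the median was -0.21 for elongation factors (7 of 8 lower in replicate 2). For the other 5′ TOP genes it was -0.20 (14 of 15 lower) and for the snoRNA hosts -0.36 (9 of 10 lower). It was -0.083 for initiation factors, -0.089 for ribosome assembly genes and -0.045 for 5′ TOP regulators, beside -0.082 for all genes tested. These contrasts were not tested.

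**Figure D5:**
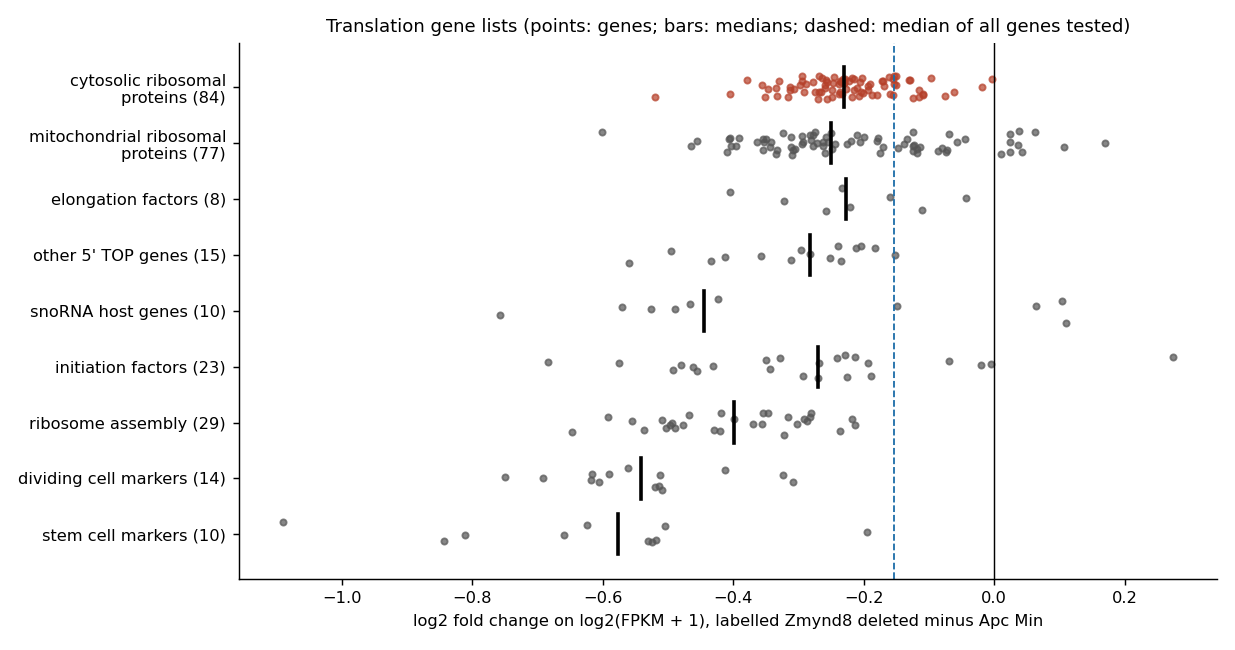
Log2 fold change (knockout-labelled libraries minus controls) of each gene in lists of translation and crypt cell genes, with the number of genes tested in brackets; bars are medians and the dashed line is the median of all genes tested. The cytosolic ribosomal protein genes (median -0.23, SD 0.085) lie closer together than the ribosome assembly genes (median -0.40, SD 0.117) or the dividing cell markers (median -0.54, SD 0.126).

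Marker genes of crypt cell types differed in direction between the lists. Over all genes tested, 71.7% were negative, 19.1% were lower with an unadjusted p under 0.05 and 0.726% were called in either direction. Dividing cell markers had 14 of 14 negative (median -0.54), 0 called and 13 with unadjusted p under 0.05. Their summed level was 312 and 282 FPKM in the controls, against 207 and 206 FPKM in the knockout-labelled libraries. Crypt base stem cell markers had 10 of 10 negative (median -0.58), with sums of 268 and 262 against 175 and 176 FPKM. Paneth cell markers had 6 of 6 negative, and 2 of them fell, Mmp7 at -1.80 and Itln1 at -1.47 (limma adjusted p = 0.0417 and 0.045). Their sums ran from 7297 to 9552 FPKM in the controls and from 4454 to 6336 FPKM in the others. Enterocyte markers had 15 of 15 positive (median 1.09), and 3 rose: Slc2a2 by 2.29, Mme by 1.52 and Treh by 1.78 (limma adjusted p = 0.0412, 0.0417 and 0.0417). Their sums ran from 14331 to 16275 FPKM in the controls and from 23157 to 26933 FPKM in the others. Tuft cell markers had 4 of 4 negative and 1 fell, Sh2d6 at -1.72 (limma adjusted p = 0.0439), with sums of 22.6 and 11.03 against 3.66 and 2.71 FPKM. Of these 6 called markers, 0 were called without either of the knockout-labelled libraries, without a filter, with a mean of at least 5 FPKM or with the replicate block, and 3 after median-ratio scaling, without the mean-variance trend or without control replicate 1. All kept their direction wherever they were tested.

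Goblet cell sums ran from 6615 to 8244 FPKM in the controls and from 5693 to 6515 FPKM in the knockout-labelled libraries. Markers of T cells (sums of 132 and 213 against 161 and 140 FPKM), B or plasma cells (401 and 423 against 471 and 321 FPKM) and fibroblasts or muscle (313 and 427 against 320 and 281 FPKM) overlapped between the groups and none was called. No marker of any list was at 0 in any library. Control replicates 1 and 2 had sums of 28006 and 24057 FPKM for the 84 ribosomal protein genes. Their sums were 312 and 282 FPKM for dividing cell markers, and 268 and 262 FPKM for stem cell markers. Gene by gene, the median control difference (replicate 2 minus 1, log2 scale) was -0.17 for dividing cell markers, with 13 of 14 lower. For stem cell markers it was -0.36, with 8 of 10 lower, a gap that their sum does not show. The ribosomal protein genes had -0.21 and all genes tested -0.082. The part of these cell types in the levels of ribosomal protein genes was not tested.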

How the data were processed

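Crypt RNA was sequenced in 4 libraries. The series' 4 ChIP-seq libraries (HCT116 cells) were not used here. The labels' protocols name an NEBNext Ultra kit and paired-end reads, and the submitters' processing notes name HISAT2 and the build mm10. No counting tool, annotation, use of strand or treatment of multiply mapped reads is given in the sources used here. The authors deposited 1 expression value per gene and library with their own log2 fold change, p-value and q-value, per the file headers, which name no unit. The deposited values were read as FPKM, since for 13359 of 13359 genes a length turned all 4 values into whole reads. The tolerance was 0.002 reads and widened for genes with many reads. The smallest fitting length was taken, so true lengths and reads may be a multiple of the recovered ones. Of 500 genes with simulated reads, 97.6% were recovered exactly. Of 13527 entries, 168 exact repeats were dropped, none of a ribosomal protein gene. Unused per-sample columns numbered 0.

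Fold changes of log2(FPKM + 1) come from limma 3.58.1 (R 4.3.3), whose variances were moderated robustly with a trend on the mean. Genes were tested if 2 or more libraries had 1 FPKM or more, which kept 12948 genes and all 84 described. The term was genotype, with 2 residual degrees of freedom, and p-values were adjusted by Benjamini-Hochberg over all genes (threshold 0.05). The pseudocount understates changes of low genes. The fit was tested on simulated data. Single values per library were compared by exact permutation (scipy 1.17.1). Same-numbered libraries were not taken as pairs, since the labels give no shared source and their deviations from the group means correlated at 0.045. The 2 libraries of a group differed beyond sampling noise. The members, gene lists and tests were chosen with earlier results of these data known. Named in full were the members with the 8 largest and 8 smallest fold changes, the 5 highest, the copies and the stalk and 5S genes, and from other lists the genes called and up to 4 of smallest p. A few items are not reported here. Alternatives changed the pseudocount, filter, scaling, variance model, replicate block and libraries, and used voom on recovered reads.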

Additional observations from a re-analysis of the deposited data

How the results depend on the processing

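No ribosomal protein gene was called under any alternative run: a pseudocount of 0.1, no filter, a mean of at least 5 FPKM, 3 scalings, no mean-variance trend, voom on recovered reads, the replicate block, and leaving out each library in turn. The count over all genes moved from 94 to 1 without a filter, 2 with a mean of at least 5 FPKM, 50 without the trend, 150 with voom and 0 with the replicate block, which leaves 1 residual degree of freedom, and it ran from 0 to 616 when 1 library was left out (616 without control replicate 2). When 1 library is left out, the lone library of its group is assumed to vary like the others. The median fold change of the 84 genes ran from -0.33 to -0.12 on leaving out a library and was -0.055 after median-ratio scaling, where 28 genes had both knockout-labelled libraries below both controls. The replicate block left the median and the 0 calls among the 84 as they were, while 8 rather than 12 had an unadjusted p under 0.05. Over the 12948 genes tested, 3152 rather than 3447 had such a p. The cause of these moves was not tested. Positive values after median-ratio scaling included 0.022 for Rpl10, 0.0071 for Rpl13, 0.060 for Rpl13a, 0.0036 for Rpl17, 0.11 for Rpl18, 0.014 for Rpl28, 0.046 for Rpl31, 0.10 for Rpl36, 0.050 for Rpl37a, 0.056 for Rpl37rt, 0.024 for Rpl38, 0.046 for Rps14, 0.021 for Rps15, 0.016 for Rps19, 0.023 for Rps20, 0.021 for Rps24, 0.16 for Rps27l, 0.0058 for Rps3a1, 0.021 for Rps7 and 0.060 for Rps9. After quantile normalization they included 0.070 for Rpl37rt and 0.022 for Rps27l, and with all libraries rescaled to the same sum 0.0094 for Rps27l. On leaving out 1 library in turn, fold changes ran from -0.23 to 0.11 for Rpl18, -0.32 to 0.00032 for Rpl28, -0.38 to 0.12 for Rpl31, -0.49 to 0.035 for Rpl37, -0.36 to 0.11 for Rpl37a, -0.57 to 0.38 for Rpl37rt, -0.34 to 0.042 for Rpl38, -0.42 to 0.10 for Rps19, -0.64 to 0.11 for Rps21, -0.079 to 0.043 for Rps27l, -0.69 to 0.22 for Rps28, -0.64 to 0.14 for Rps29 and -0.29 to 0.056 for Rps9. These positive values came without control replicate 1, and for Rps27l also without replicate 2 of the libraries labelled knockout. Likewise, differences in log2 ratio ran from -0.016 to 0.15 for Rpl22l1 over Rpl22, -0.012 to 0.011 for Rpl36al over Rpl36a and -0.087 to 0.19 for Rpl7l1 over Rpl7. Without the paralog copies or without Rps19bp1, the latter chosen after seeing the data, the median of the 84 genes kept its direction, as did the subunit balance without both, also chosen then.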
